A study of Mus musculus with 19 samples.

Results

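The regions described here are constitutive distal sites of open chromatin in mouse forebrain progenitors: stretches that held a called summit in every one of 19 libraries and lay more than 10 kb and at most 100 kb from the nearest end of a protein-coding gene. They were selected on the deposited summit scores. From each library the 29112 summits with the highest scores were kept, which is as many as the shortest list holds, and those no more than 200 bp apart were chained into regions. Of 44878 regions with summits of at least 2 libraries, 13035 held a summit of every library, and 3310 of these met the distance rule. Presence in every library and the distance are therefore properties of the choice and not findings.

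The assay was bulk ATAC-seq, where a transposase cuts accessible DNA and adds sequencing adapters, on Prom1-positive cells taken from embryonic day 14 forebrain with magnetic beads. The study addresses how retinoic acid made by the meninges, the membranes around the brain, bears on neurogenesis. The groups were 6 Foxc1 hith/LacZ mutants on a retinoic acid (RA) diet, 5 Foxc1 WT controls on the RA diet, 4 Foxc1 hith/LacZ mutants without the diet and 4 Foxc1 WT controls without it. The hith allele lowers Foxc1 function, the LacZ allele carries a reporter insertion, and Foxc1 is needed for the meninges of the forebrain to form. All groups share the Prom1 separation, which does not by itself limit the cells to 1 type. Whether the libraries of a group came from separate embryos is not given, and p-values therefore measure the spread between these libraries only.

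Distal open sites are where many enhancers lie. Transcription factors bind there and act on promoters that can be far away along the chromosome, so the nearest gene is a name for a place and need not be the gene that a site acts on. Sites open in all samples of a tissue can be enhancers of genes that define the cells, binding sites for architectural proteins, or promoters of transcripts that a protein-coding annotation leaves out.

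Several libraries stood apart. Deposited lists held 29112 to 122591 summits, and the score of the weakest matched summit was between 1.305 and 53.7 on the −log10 scale, so matching equalised length and not sensitivity. Mutant 1 has a genotype label, Foxc1 WT, that conflicts with its title. Mutant 6 on the RA diet placed the distal sites lower in its list than any other library did. Among regions with summits of exactly 18 libraries in the same distance band, the missing library was mutant 4 on the RA diet, the library with the shortest list, in 323 of 1149 cases (28.1%), and control 4 on the RA diet in 0.

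**Figure D1:**
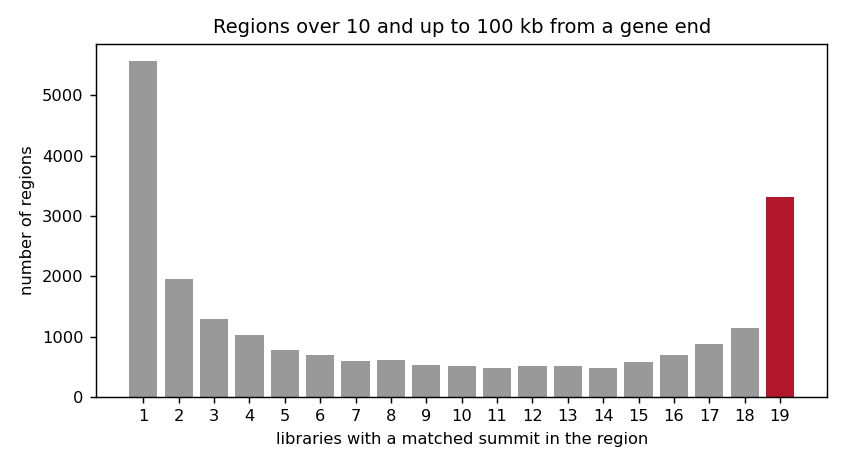
Number of regions more than 10 and up to 100 kb from a gene end, by how many of the 19 libraries had a matched summit in them. The red bar holds the 3310 regions with a summit of every library, against 1149 with summits of 18 and 5574 with a summit of 1.

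The defining genes of the labelled cells were looked up first, beside all protein-coding genes, of which 28.7% had a constitutive region within 1 kb of an end and 10.8% a distal site, at 0.289 sites per 100 kb of DNA in the distance band. Of 28 genes of radial glia and neural stem cells, the progenitors that line the ventricles, 17 had a constitutive region within 1 kb of an end, and 17 had at least 1 constitutive distal site. That band DNA came to 3520 kb for the radial glia genes. Of 12 erythroid genes 0 had either kind of region, but 7 of them had no DNA in the band and the list had 158 kb in all, so its 0 sites say little. Endothelial genes had an end region in 1 of 15 and a distal site in 1 of 15 (Sox17), in 1424 kb of band DNA (0.0702 sites per 100 kb). Mural genes had an end region in 1 of 10 and no distal site in 593 kb, too little for that 0 to say much. Microglial genes had an end region in 1 of 14 and distal sites at 2, Spi1 and Ptprc, in 635 kb (0.315 per 100 kb). Meningeal fibroblast genes had no end region in 15 and distal sites at 3, in 1358 kb (0.221 per 100 kb). These last 2 densities are near that of all genes. Prom1 itself, the antigen used for the separation, had neither kind of region, with 97.7 kb of band DNA.

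Among the sequences under the sites, 2 kinds carry what follows: start windows of long noncoding RNAs (lncRNAs) and the hairpins of microRNAs that lie beside distal sites. Sequences were taken from RefSeq tables on GRCm38.p6, in which a start window runs from 250 bases before to 50 bases after an annotated start. Of the 3310 sites, 276 overlapped such a window. In the windows below, capitals mark the bases between the outermost summits of the 19 libraries. The first is a start window of C130071C03Rik, the lncRNA that hosts Mir9-2, at chr13:83721131-83721430 on the + strand, the second another of the same lncRNA at chr13:83732243-83732542 (+), the third that of Chaserr, a lncRNA that limits Chd2 expression in mouse, at chr7:73558346-73558645 (−), and the fourth one of the lncRNA Gm33200 near Emx1 at chr6:85165585-85165884 (+).
C130071C03Rik upstream: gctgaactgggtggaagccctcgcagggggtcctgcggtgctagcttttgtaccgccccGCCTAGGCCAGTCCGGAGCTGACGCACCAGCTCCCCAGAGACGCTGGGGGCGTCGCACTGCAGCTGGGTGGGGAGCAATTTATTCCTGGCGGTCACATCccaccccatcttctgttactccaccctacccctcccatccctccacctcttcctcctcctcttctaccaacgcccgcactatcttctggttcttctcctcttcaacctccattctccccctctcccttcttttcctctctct
C130071C03Rik downstream: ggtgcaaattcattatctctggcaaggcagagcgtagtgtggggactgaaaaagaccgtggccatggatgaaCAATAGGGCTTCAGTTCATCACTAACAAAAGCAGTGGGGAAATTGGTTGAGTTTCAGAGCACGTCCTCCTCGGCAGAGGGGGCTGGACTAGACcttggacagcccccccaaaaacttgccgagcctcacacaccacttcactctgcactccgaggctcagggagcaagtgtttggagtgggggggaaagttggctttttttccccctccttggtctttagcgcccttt
Chaserr: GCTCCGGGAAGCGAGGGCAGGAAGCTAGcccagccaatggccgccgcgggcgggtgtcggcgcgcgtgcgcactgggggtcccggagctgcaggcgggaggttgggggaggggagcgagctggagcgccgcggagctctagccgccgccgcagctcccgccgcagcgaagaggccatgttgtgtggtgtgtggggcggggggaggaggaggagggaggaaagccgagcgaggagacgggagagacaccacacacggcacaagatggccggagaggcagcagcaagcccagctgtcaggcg
Gm33200: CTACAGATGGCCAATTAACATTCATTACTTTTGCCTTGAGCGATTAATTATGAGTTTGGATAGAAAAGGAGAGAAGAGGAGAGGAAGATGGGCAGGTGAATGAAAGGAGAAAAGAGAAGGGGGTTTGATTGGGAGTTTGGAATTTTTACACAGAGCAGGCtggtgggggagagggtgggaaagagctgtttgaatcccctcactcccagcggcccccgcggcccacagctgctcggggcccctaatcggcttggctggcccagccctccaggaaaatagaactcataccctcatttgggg

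The mature microRNAs shown next lie beside distal sites; capitals mark the seed, bases 2 to 8, which pairs with target transcripts. The miR-9 arms are made from the 3 hairpins Mir9-1, Mir9-2 and Mir9-3 and are known for their part in the switch from progenitor growth to neuronal differentiation. miR-181a and miR-181b share 1 seed, and miR-17 belongs to the Mir17 cluster, known for promoting proliferation.
miR-9-5p: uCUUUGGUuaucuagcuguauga
miR-9-3p: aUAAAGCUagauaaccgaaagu
miR-181a-5p: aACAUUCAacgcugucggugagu
miR-181b-5p: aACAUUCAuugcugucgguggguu
miR-17-5p: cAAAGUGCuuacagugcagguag

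The 3 miR-9 hairpins each had a constitutive distal site within 2 kb. The site at chr13:83739665-83739887 lay 780 bp from Mir9-2, that at chr7:79504825-79504931 lay 333 bp from Mir9-3 within the lncRNA Mir9-3hg, and that at chr3:88214438-88214506 lay 1092 bp from Mir9-1 within the lncRNA Gm3764. Their nearest protein-coding genes were Mef2c, Polg and Rhbg, at 72.7, 37.0 and 28.4 kb. A site at chr1:137966365-137966679, 96.3 kb from Ptprc, overlapped Mir181a-1 and Mir181b-1, so the Ptprc count of 1 among the microglial genes is this site. A site at chr14:115042255-115042329, 49.9 kb from Gpc5, lay 1342 bp from Mir17, the first hairpin of its cluster.

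Ranks below run from 1 for the strongest summit of a library to 29112 for the weakest. The Mir9-1 site ranked between 2995 and 6784 in mutants on the RA diet (median 5472, n = 6). It ranked 9197, 6229, 5941, 7089 and 5902 in controls on the diet, 4613, 4330, 4587 and 6775 in mutants, and 5670, 8750, 4773 and 5658 in controls. The groups overlapped. The Mir9-2 site was weaker and more uneven: it ranked between 6772 and 18027 in mutants on the RA diet (median 12338), and 18974, 23369, 9083, 12768 and 13290 in controls on the diet. It ranked 19069, 17638, 6033 and 6796 in mutants, against 12950, 18049, 20975 and 17924 in controls. Mutants 3 and 4 placed it above every control. The Mir9-3 site ranked between 8470 and 18979 in mutants on the RA diet (median 10124), and 7561, 9396, 10125, 8315 and 7971 in controls on the diet. It ranked 8188, 10170, 5405 and 2332 in mutants, against 8142, 9977, 10516 and 8971 in controls, again with mutants 3 and 4 highest. Mutants 3 and 4 were the libraries least like the rest, and whether that bears on these ranks was not tested. The lowest adjusted p of these sites over the 6 comparisons described below was 0.687 for Mir9-1, 0.450 for Mir9-2 and 0.195 for Mir9-3 (limma, Benjamini-Hochberg over 13035 regions).

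**Figure D2:**
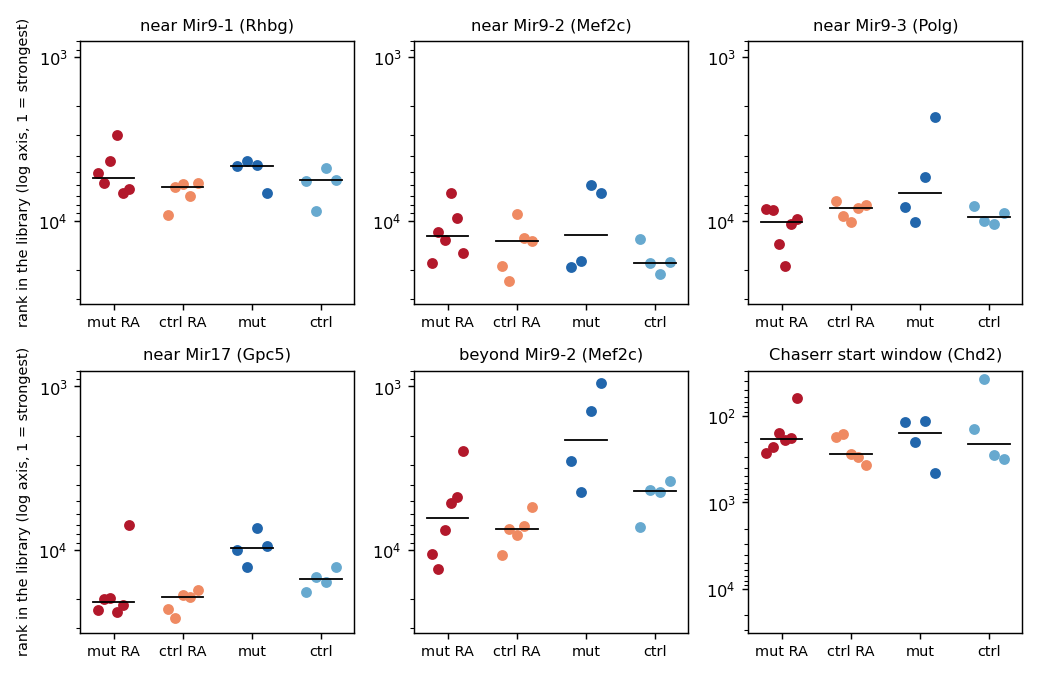
Rank of 6 distal sites in each of the 19 libraries (points, log axis, 1 is the strongest summit), with the group median as a line. Groups run from mutants on the RA diet through controls on the diet and mutants to controls; near Mir17, 5 of the 6 mutants on the diet lie between 19659 and 23877 and the remaining one at 7055, while mutants lie between 7327 and 12647.

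Start windows were more frequent among the strong sites than among the weak ones. Of the 276 sites over a start window, 155 overlapped the window of their nearest protein-coding gene, 24 only that of another protein-coding gene, and 97 only that of a lncRNA gene. The share was 23.0% among the 100 sites with the best median rank and 12.6% among the 827 best-ranked sites, against 6.40% among the 828 weakest. Rank took part in the choice of sites, so these shares are given without a test. The share over all 3310 sites was 8.34%, against 2.75% of 13273 regions of the same distance band with summits of 2 to 18 libraries. It was 74.0% of 6317 constitutive regions within 1 kb of a gene end, where the distance rule itself places many starts. Beyond 100 kb it was 3.84% of 1769 constitutive regions. Sites had a median width of 130 bp, against 86 bp for the regions of 2 to 18 libraries. A wider region overlaps a window more readily, and how far width bears on these shares was not tested.

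The Chaserr site, chr7:73558618-73558702, is an example. It ranked between 62 and 267 in mutants on the RA diet (median 184), 177, 160, 273, 296 and 369 in controls on the diet, 119, 200, 116 and 456 in mutants, and 141, 38, 281 and 313 in controls. It was thus among the strongest summits of every library, and the groups overlapped. The Gm33200 site near Emx1, a homeobox gene of the dorsal forebrain, ranked between 2146 and 6236 in mutants on the RA diet and 6008, 1960, 2057, 3976 and 4193 in controls on the diet. It ranked 7250, 5024, 9493 and 1442 in mutants, against 3378, 3919, 6849 and 4903 in controls. Lhx2, which keeps cortical progenitors in their dorsal fate, had a site over a start window of its own, with a median rank of 2761 over the 19 libraries. The best-ranked sites of all were inside Rps6ka2 (median rank 54, 80.9 kb from its nearer end), Por (67) and Stard13 (127). Rps6ka2 encodes a kinase downstream of ERK and Por the electron donor of cytochrome P450 enzymes.

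The 316 different start windows under sites had a median GC content of 59.3% and 16 CpG dinucleotides, against 52.7% and 7 in all 32817 windows. The 116 lncRNA windows among them had 56.2% and 12, against 48.3% and 4 in all 11587 lncRNA windows. The 200 coding windows had 61.5% and 19, against 56.3% and 13 in all 21230. Of the printed windows, Chaserr had 72.3% GC and 30 CpG, the upstream start of C130071C03Rik 60.7% and 12, its downstream start 53.3% and 7, and Gm33200 51.7% and 6. Short words were searched on both strands over whole windows. The E-box CAGCTG, a proneural factor word, was in 17.4% of the windows under sites and 16.3% of all windows. It was also in the Chaserr, Gm33200 and upstream C130071C03Rik windows, but among the capitals in the last only. The homeodomain word TAATTA was in 5.38% against 5.30% of all, and in the Gm33200 window. CATTGT, a SOX word, was in 38 of the 316 windows against 12.6% of all, GGAATG, a TEAD word, in 15.5% against 14.7%, and TGGGAA, an RBPJ word, in 22.5% against 25.6%. TGGGAA was also in the Gm33200 window, outside the capitals. The octamer ATGCAAAT, bound by POU factors, was in 11 of the 316 windows (3.48%) against 1.74% of all. A match says only that the letters are there.

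Most sites overlapped no start window. Of the 3310, 1729 (52.2%) lay in the span of their nearest gene, 161 (4.86%) in the span of another protein-coding gene and 1420 (42.9%) in none. The share inside any protein-coding gene was 57.1%, against 55.4% of the 13273 less shared regions of the band. Of the 1420 sites outside protein-coding genes, 342 (24.1%) lay in the span of a lncRNA gene. The sites did not thin out with distance: there were 2.91 per Mb of DNA at 10 to 20 kb, 2.89 at 20 to 50 kb and 2.87 at 50 to 100 kb from a gene end. At the limits, the sites just inside 10 kb were beside Pja1 (10.017 kb) and Mobp (10.020 kb) and those just outside beside Capg (9.989 kb) and Samd5 (9.991 kb). Just inside 100 kb were sites in Ptpro (99.703 kb) and Sgip1 (99.751 kb), and just outside sites nearest Glis3 (100.103 kb) and Rabgap1l (100.198 kb).

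Sites were counted by nearest gene. Of 21887 protein-coding genes, 2368 (10.8%) had at least 1 site and 648 had 2 or more; 140 had 3, 32 had 4 and 25 had 5 or more. Mef2c had 8 sites. Bach2 and Ralgapa2 had 7 each. Mvb12b, Nfia, Tle3, Ephb2 and Abcc4 had 6, and Nfib, Septin9, Gli2, Grik3, Pam, Sfxn5, Chd2, Hmga2, Prdm16 and Sertad2 were the first by the tie rule among those with 5. The 20 genes with most sites held 115 sites (3.47%). They were also large: the DNA assigned to them in the distance band had a median of 266 kb, against 119 kb for genes with a site and 18.7 kb for all genes. A constitutive region within 1 kb of an end was found at 6 of the 20, against 36.7% of genes with a site and 28.7% of all genes.

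**Figure D3:**
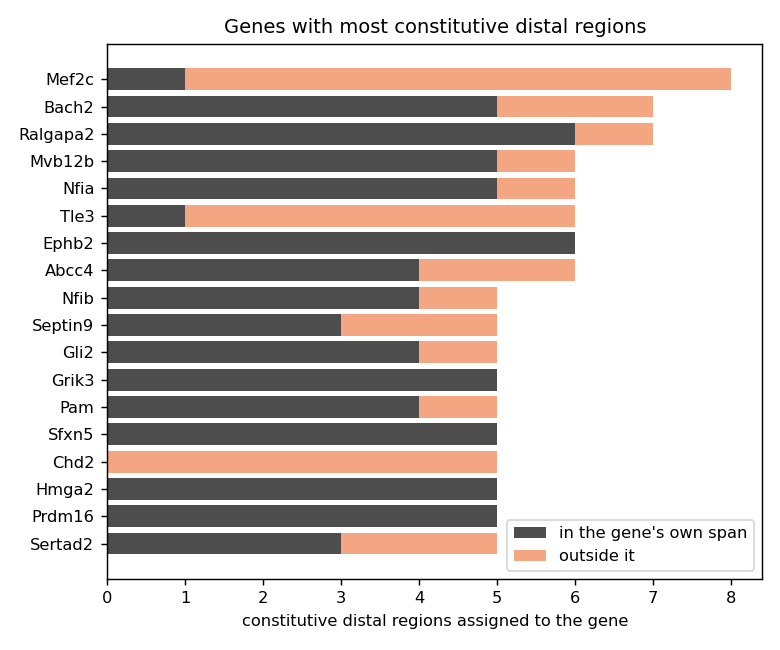
18 of the 20 genes with most constitutive distal sites, with the number of sites inside the span of the gene (dark) and outside it (light). Mef2c and Tle3 have 1 site inside each, Chd2 has none inside, and all 6 sites of Ephb2 and all 5 of Hmga2, Prdm16, Grik3 and Sfxn5 are inside.

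Mef2c encodes a MADS-box transcription factor of neurons and muscle. Only 1 of its 8 sites, chr13:83518460-83518539, lay inside the gene. The other 7 lay in 29.9 kb of DNA, 48.2 to 78.0 kb beyond the gene, at the C130071C03Rik and Mir9-2 locus. They were at chr13:83715208-83715289, chr13:83721190-83721288, chr13:83727252-83727350, chr13:83729668-83729803, chr13:83732315-83732407, chr13:83739665-83739887 and chr13:83745044-83745124, with median ranks of 7820, 10689, 15534, 15743, 17540, 13290 and 5184. Of these, 4 lay within C130071C03Rik (chr13:83721381-83741308), and the site at 83721190 lay just before it, inside the start window. The sites at 83715208 and 83721190 lay in the span of a lncRNA gene other than C130071C03Rik, and that at 83745044 in no lncRNA span. By distance the sites are named for Mef2c, while 4 of them lie in the miR-9 host.

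The last site of the row, 78.0 kb from Mef2c, was the strongest. It ranked between 2497 and 12990 in mutants on the RA diet (median 6342), and 10784, 7389, 8088, 7120 and 5422 in controls on the diet. It ranked 2860, 4413, 1411 and 946 in mutants, against 7249, 4322, 4404 and 3801 in controls. Every mutant but number 2 placed it above all controls without the diet, and the groups on the diet overlapped each other. No comparison of its order passed the test over all libraries (lowest adjusted p = 0.166, limma).

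Bach2, which encodes a transcriptional repressor known from lymphocytes, had 5 sites inside its span and 2 beyond it, at chr4:32179872-32180015 and chr4:32188907-32189290. Those inside were at chr4:32325739-32325904, chr4:32486818-32486958, chr4:32508720-32508869, chr4:32531295-32531695 and chr4:32538286-32538433. Median ranks ran from 5928 for the first site inside the gene to 17443 for the last. Ralgapa2, a subunit of the GTPase-activating complex for Ral, had stronger sites than Mef2c and Bach2, with a median rank of 2838 over its 7 sites and of 869 for the one outside its span. It also had a constitutive region at an end, which Mef2c and Bach2 did not.

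**Figure D4:**
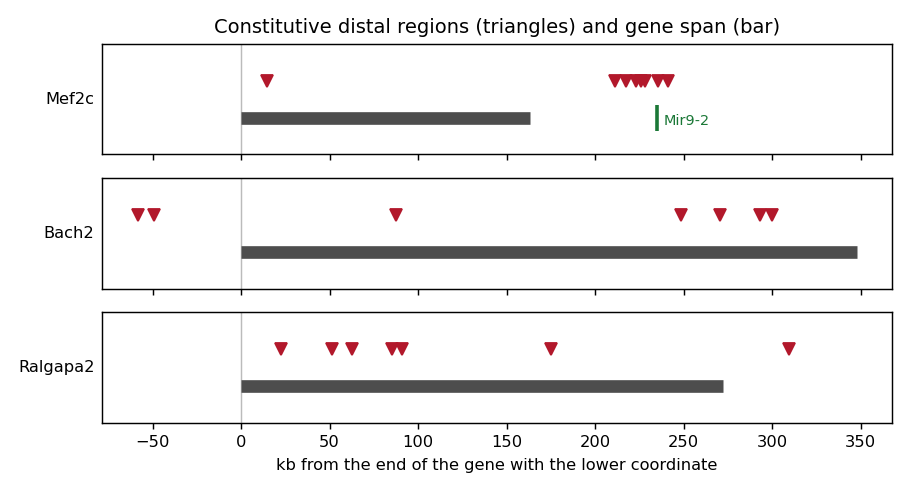
Sites of Mef2c, Bach2 and Ralgapa2 (triangles), drawn along each gene (bar) in kb from its end with the lower coordinate. For Mef2c, 7 of 8 triangles cluster beyond the gene around Mir9-2; the sites of Bach2 and Ralgapa2 are spread along and around the genes.

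The other named genes have varied roles. Nfia and Nfib, nuclear factors of gliogenesis and of neuronal migration, had 6 and 5 sites and their relative Nfix had 2. Tle3 encodes a corepressor of the Groucho family, which Hes proteins recruit. Gli2 is a transcription factor of the Hedgehog pathway, Prdm16 a factor of radial glia, Hmga2 a chromatin protein of young neural stem cells and Chd2 a chromatin remodeller. Sertad2 is a transcriptional coregulator. Ephb2 is a receptor for ephrin-B ligands, Grik3 a kainate receptor subunit and Abcc4 an efflux transporter. Mvb12b encodes a subunit of the ESCRT-I sorting complex, Septin9 a cytoskeletal GTPase, Pam an enzyme that amidates peptides and Sfxn5 a mitochondrial carrier. None of the 5 sites of Chd2 lay inside the gene, and their median rank was 1708, the best of the 20 genes.

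The lists of genes for cell types and pathways differed in how many members had a site, beside 10.8% of all genes and 0.289 sites per 100 kb of band DNA. Of the 28 radial glia genes, 17 (60.7%) had one, at 0.909 per 100 kb. Pax6, which sets dorsal identity, had 4, Sox9, Gli3, Rfx4 and Hes1 had 3 each, and Sox1, Lhx2 and Ptprz1 had 2. Sox2, named in the title of the study, had 0, although 9 regions with summits of at least 2 libraries lay in its band. Prom1, Vim, Nes and Fabp7 also had 0. Band DNA came to 97.7 kb at Prom1, 28.9 kb at Vim, 0 kb at Nes and 11.9 kb at Fabp7. At the density over all genes, their 0 sites say little. Of 25 projection neuron genes, 17 had a site (0.759 per 100 kb), and 19 of its 42 sites were at Mef2c, Nfia and Nfib, of which 7 lie at the miR-9 host locus. Nfia and Nfib also stand in the gliogenic list. Cux2 had 3 sites and Bcl11a, Foxp1, Foxp2 and Myt1l had 2. Of 13 gliogenic genes, 5 had one (1.101 per 100 kb), and 13 of the 16 sites were at Nfia, Nfib and Nfix. Axon guidance and adhesion genes had a site in 17 of 30, but at 0.324 per 100 kb, near the value of all genes. Their band DNA had a median of 300 kb per gene, against 248 kb for projection neuron genes and 18.7 kb for all genes.

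Notch signalling keeps progenitors from differentiating: ligands on one cell activate receptors on the next, and the receptor fragment acts with Rbpj and Mastermind on Hes genes. Of 27 Notch genes, 9 had a site (0.836 per 100 kb). Of the receptors Notch2 had 4 and Notch1 had 1, of the ligands Dll1 and Jag1 had 1 each, and of the nuclear partners Maml3 had 3 and Rbpj and Maml2 had 1. Of the targets Hes1 had 3 and Hes5 had 1, while Hey1, Hey2 and Hes6 had 0, with 40.9, 92.3 and 0 kb of band DNA. Of 23 retinoic acid genes, 7 had a site (0.353 per 100 kb, near the value of all genes). They were the receptors Rara, Rarb and Rxrg, the uptake receptor Stra6 and the transcription factors Meis1, Meis2 and Nr2f2, with Meis1 at 2 and the others at 1. No gene of synthesis or breakdown (Rdh10, Dhrs3, Aldh1a1, Aldh1a2, Aldh1a3, Cyp26a1, Cyp26b1 and Cyp26c1) had one. Cyp26c1 had 0 kb of band DNA and the others from 44.8 kb (Rdh10) to 187 kb (Aldh1a1). At the density over all genes, 0 sites at each of them says little. Of 15 neurogenic genes, 6 had a site (0.890 per 100 kb), with 2 at Gadd45g. Of 22 Wnt and BMP genes 10 did (0.673 per 100 kb), with 3 at Tcf7l1. Ventral forebrain genes had one in 8 of 23 (0.582 per 100 kb), with 3 at Sox6. Cell cycle genes had one in 4 of 25, at Mki67, Ccnd1, Ccne1 and Cdk6, beside end regions in 17 of 25. Of these 25 genes 10 had no band DNA, and the list had 0.599 sites per 100 kb, above the 0.289 of all genes. Of 15 housekeeping genes 0 had a site and 11 had an end region, and of 15 Hox genes 0 had either. These lists had 280 and 130 kb of band DNA in all, with none at 6 and 10 of their genes, so their 0 sites are near what the density over all genes gives.

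The sites were weaker than constitutive regions at gene ends and their summits were less sharply placed, which is a description of values that took part in the choice. The median over sites of the median rank was 9541, against 5273 at gene ends and 9259 beyond 100 kb. The SD of summit position over the 19 libraries had a median of 36.1 bp, against 28.7 bp and 39.9 bp. At 41 sites all summits fell within 10 bp, and at 1, chr9:22411496, nearest Anln, all 19 libraries had the same base. The sites in Cyrib and Cbfa2t3 were 2 bp wide. The widest spread was in Plekha7 (SD 203 bp), at Ppp1r3b (201 bp) and in Slc14a2 (199.8 bp). The weakest sites were in Pcyt1b, at Ccn6 and at Dpp9, with median ranks of 23554, 23165 and 22804.

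Each library placed most of the sites among the stronger 14556 of its 29112 summits. The share ranged from 65.0% to 82.5% in mutants on the RA diet (median 81.3%). It was 74.6%, 80.7%, 82.0%, 84.1% and 79.1% in controls on the diet, 70.9%, 81.0%, 74.4% and 74.0% in mutants, and 82.2%, 74.2%, 79.3% and 77.7% in controls. The groups overlapped. The lowest value was that of mutant 6 on the diet, whose share of gene-end regions among the stronger summits, 97.0%, was the highest. Mutant 1 had 70.9% of the sites and 96.9% of the gene-end regions there, and control 2 had 74.2% and 95.9%. The sites took 32.5% to 35.5% of all matched summits in the distance band over the 19 libraries.

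**Figure D5:**
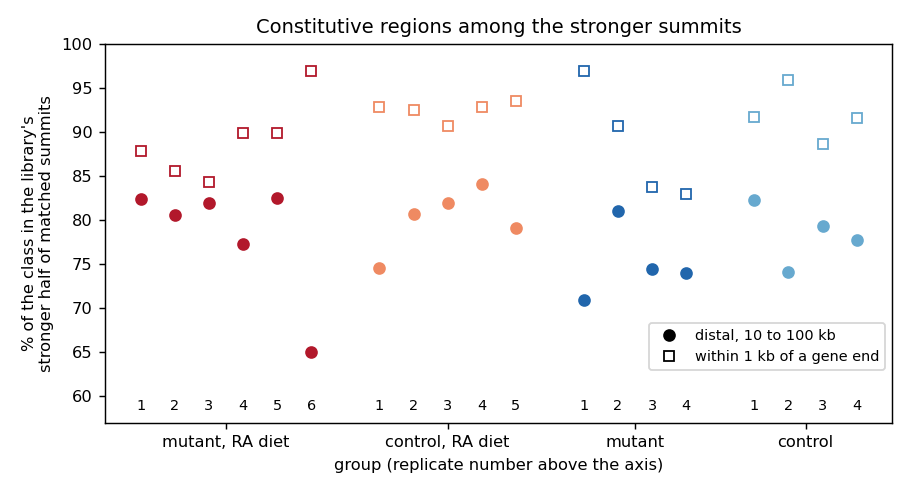
Percentage of constitutive distal sites (filled circles) and of constitutive regions within 1 kb of a gene end (open squares) that lie among the stronger 14556 of 29112 matched summits, per library. Groups run from mutants on the RA diet to controls; mutant 6 on the diet has the lowest circle, at 65.0%, and the highest square, at 97.0%.

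Whether the band as a whole, with all its summits, took a different share of a library was tested over libraries. The share of matched summits more than 10 and up to 100 kb from a gene end was 33.9% ± 1.02 in mutants on the RA diet (SD, n = 6) and 33.8% ± 0.257 in controls on the diet (SD, n = 5). Mutants had 33.5% ± 0.910 (SD, n = 4), against 34.3% ± 0.775 for controls (SD, n = 4). The largest difference was mutants minus controls, at -0.810 percentage points, with p = 0.286 by an exact 2-sided permutation test. After adjustment over 5 contrasts that p was 0.714, and those of the other contrasts ran from 0.714 to 0.898.

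The order of openness among the 13035 constitutive regions was compared between groups. In each library the regions were ranked by score and the rank turned into a normal score, so that a value of 1 is 1 SD of the order and a higher value is a stronger site. The rule limits what can be seen, because a site missing from any list is not a member. With all 19 libraries, 0 of 3310 sites and 0.0% of all 13035 regions passed an adjusted p of 0.05 in any of the 6 comparisons (limma, Benjamini-Hochberg). Below an unadjusted p of 0.05, mutants on the RA diet against mutants had 520 sites (15.7%), beside 15.6% of all regions. Mutants on the diet against controls had 528 sites (16.0%), beside 12.9%. Mutants against controls had 293 (8.85%), beside 10.8%, and controls on against off the diet had 313 (9.46%), beside 6.69%. Mutants against controls, both on the diet, had 134 (4.05%), beside 2.44%, and the interaction of genotype and diet had 135 (4.08%), beside 3.90%. Single libraries moved these counts by over 1.5 times. The count of sites for mutants against controls was 517 without mutant 1, 560 without mutant 2, 134 without mutant 3 and 148 without mutant 4. The interaction had 254 sites without mutant 1, 281 without mutant 2 and 67 without mutant 4. Without mutant 6 on the diet, mutants on the diet had 254 sites against controls on the diet and 819 against controls. Without control 4, mutants on the diet against controls had 349 and controls on against off the diet had 180. Without control 1 on the diet, mutants against controls, both on the diet, had 85.

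In mutants on the RA diet against mutants, the sites with the smallest p were beside Zfp622, which encodes a zinc finger protein, and inside Anks1. The Zfp622 site, chr15:26021860-26022009, ranked between 17875 and 23060 in mutants on the diet (median 19650) and 11139, 13113, 11372 and 10189 in mutants. The groups did not overlap, which picking by the smallest p makes likely. The difference was -1.13 (SE 0.225, adjusted p = 0.132, limma). The Anks1 site, chr17:28013380-28013439, ranked between 3905 and 7438 in mutants on the diet (median 4357), against 9744, 9596, 10518 and 18437 in mutants, and differed by 0.96 (SE 0.196, adjusted p = 0.132, limma). In mutants on the diet against controls, the site in Eml1, a microtubule-associated protein of cortical progenitors, ranked between 4206 and 10425, against 14345, 18562, 14738 and 20012 in controls, a difference of 1.54 (SE 0.300, adjusted p = 0.123, limma). The site in Tmem132c differed by 1.58 in the same comparison (SE 0.325).

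In mutants against controls, without the diet, the site nearest 1700034J05Rik, inside Ppfibp1, ranked 14019, 9017, 9531 and 16063 in mutants, against 24603, 18388, 21389 and 23209 in controls. The difference was 1.42 (SE 0.296, adjusted p = 0.449, limma), and 1.53 without mutant 1 (adjusted p = 0.151, limma). The site in Foxn3, a forkhead gene, ranked 16895, 17252, 13927 and 7212 in mutants, against 23519, 24966, 20972 and 26074 in controls (difference 1.42, SE 0.327). In controls on the diet against controls, the site beside Tgfbr1, a receptor for TGF-β, ranked 14436, 16871, 13939, 13481 and 12667, against 7139, 8833, 8402 and 11178. The difference was -0.82 (SE 0.199, adjusted p = 0.605, limma). The site in Stag1, a cohesin subunit, ranked 7873, 5202, 5524, 10094 and 8195 in controls on the diet, against 14762, 13650, 16720 and 17211 in controls, a difference of 1.16 (SE 0.281). In mutants against controls, both on the diet, the smallest p were at Tnk2 (difference 0.70) and Sh3pxd2a (1.07), and for the interaction at Phldb2 (-0.94) and Ahdc1 (1.53), with an adjusted p of 0.939 or more (limma).

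Among single libraries left out, mutant 6 on the RA diet changed the calls by order most. Without it, 129 sites (3.90%) passed in mutants on the diet against mutants, beside 3.05% of all 13035 regions (limma, adjusted p under 0.05). Of the sites 96 were higher and 33 lower, beside 212 (1.63%) and 186 (1.43%) of all regions. Against controls, 109 sites (3.29%) passed, beside 2.13% of all regions. Here 99 sites were higher and 10 lower, beside 208 (1.60%) and 70 (0.537%) of all regions. The sites as a class lay higher without that library. Their median difference was 0.0897 against mutants and 0.0943 against controls, beside 0.00197 and -0.0439 for all regions. Whether the excess of rises follows from this was not tested. In the other 4 comparisons 0 sites passed without it. Without mutant 1, with mutant 6 on the diet kept, 0 sites passed in every comparison.

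Without mutant 6 on the diet, the site by Mir17 had the smallest p among the sites in mutants on the diet against mutants. In the 6 mutants on the diet it ranked 23304, 19831, 19659, 23877, 21711 and 7055, the last being mutant 6. In mutants it ranked 9963, 12647, 7327 and 9465, and it ranked 22983, 26088, 18850, 19293 and 17528 in controls on the diet, against 17984, 14590, 15626 and 12747 in controls. The remaining 5 mutants on the diet all lay below the mutants, and the difference was -1.59 (SE 0.249, adjusted p = 0.0181, limma). With all 19 libraries the adjusted p was 0.155, and without mutant 1 the difference was -1.26 (adjusted p = 0.115).

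The rises with the smallest p in the same comparison were at sites near Grifin, Wdr5 and Zfp169. The Grifin site, chr5:140549780-140549878, ranked 579, 744, 681, 1105, 1046 and, in mutant 6, 6690 in mutants on the diet, against 4509, 2036, 4603 and 4153 in mutants. The difference without mutant 6 was 0.93 (SE 0.161, adjusted p = 0.0198, limma). Wdr5 encodes a subunit of histone methyltransferase complexes. Its site, chr2:27573014-27573300, ranked 861, 725, 1092, 1205, 1213 and 7969 in mutants on the diet, against 7838, 2458, 12608 and 5574 in mutants (difference 1.32 without mutant 6). The site in Kif5c, a neuronal kinesin, fell (-0.94, SE 0.191) and ranked below the mutants in every mutant on the diet but number 6, which ranked 14879 against 12366 to 16063. Of the list genes, a site called in this comparison was found only at Sox17 (-1.44), Epha4 (1.00) and Mef2c (-1.12), the last being the strongest site of the Mir9-2 row. The lists of these genes held 1 (endothelial), 28 (axon guidance and adhesion) and 42 (projection neuron) sites, beside 129 called of all 3310 sites (3.90%). Against controls, the rise with the smallest p was in Tmem132d, a membrane protein gene, whose site ranked 8693, 13183, 10868, 12930, 11912 and, in mutant 6, 23585 in mutants on the diet, against 27084, 20987, 21092 and 24907 in controls (difference 1.66 without mutant 6, SE 0.279). A site 68.3 kb from Sox13, a SoxD transcription factor gene, ranked 1702, 1787, 1850, 1552, 1986 and, in mutant 6, 5539 in mutants on the diet. It ranked 4021, 5520, 6337 and 5440 in controls (difference 0.82 without mutant 6, SE 0.146). Of the list genes, only 1 site each at Pax6 and Nfia was called against controls, beside 109 of all 3310 sites (3.29%). The radial glia list, with Pax6, held 32 sites, and the projection neuron and gliogenic lists, with Nfia, held 42 and 16. The Pax6 site, chr2:105719917-105720110, ranked 3536, 2711, 2737, 5404, 4101 and, in mutant 6, 19094 in mutants on the diet, against 8016, 10748, 10068 and 12029 in controls (1.09, SE 0.268, adjusted p = 0.0392, limma). The Nfia site, chr4:97618731-97619208, ranked between 17270 and 26140 in mutants on the diet, mutant 6 included, against 14686, 12475, 14171 and 16060 in controls (-0.97, SE 0.248, adjusted p = 0.0455, limma). All these calls were made without mutant 6 on the diet, and none was made in the fit of all 19 libraries given first. Whether the placing of distal sites in that library bears on them was not tested.

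The position of the summit inside a site was compared as well. With all 19 libraries 0 of 3310 sites passed in any comparison, beside 1 of 13035 regions (0.00767%) in mutants on the RA diet against mutants and 0.0% in the other comparisons (limma). Below an unadjusted p of 0.05 there were 305 sites beside 8.52% of all regions in mutants on the diet against mutants, 198 beside 5.65% in mutants on the diet against controls, and 207 beside 5.88% in mutants against controls. There were 103 beside 2.98% in controls on against off the diet, 149 beside 4.03% in mutants against controls on the diet and 149 beside 3.81% for the interaction. As percentages of the 3310 sites these were 9.21%, 5.98%, 6.25%, 3.11%, 4.50% and 4.50%. Without mutant 2 the count was 377 for mutants against controls, beside 1365 of all 13035 regions. For the interaction it was 234, beside 808.

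The site with the smallest p lay 88.7 kb from Myh15, at chr16:49288233-49288363. Its summits lay 57, 60, 62, 65, 6 and 27 bp above the midpoint of the region in mutants on the RA diet, and at -59, -65, -30 and -65 bp in mutants. The groups did not overlap, which picking by the smallest p makes likely. The difference was 101 bp (SE 16.2, adjusted p = 0.0680, limma). Controls on the diet were at 60, 62, 59, -2 and 62 bp, against 57, -4, -4 and -1 bp in controls. A site in Oprd1, an opioid receptor gene, had its summit at 33, -26, -26, -67, -26 and -42 bp in mutants on the diet, against 67, 60, 53 and 67 bp in controls, a difference of -87.4 bp (SE 15.2, adjusted p = 0.0902, limma). A site in Pam had it between -46 and -36 bp in mutants on the diet, against 15, 25, 24 and 20 bp in controls (-63.3 bp, SE 13.5). In mutants against controls the smallest p was in Lrrc4c, where summits lay at -39.5, 42.5, -43.5 and -39.5 bp in mutants, against 43.5, 43.5, 42.5 and 43.5 bp in controls (-63.3 bp, SE 13.7, adjusted p = 0.393, limma). Mutant 2 lay with the controls there.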

How the data were processed

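Per the submitters' processing notes the libraries passed through BWA, MACS2, Signac and DiffBind on mm10 (GRCm38); no versions or roles are given there. The deposited files hold 1 summit per line with a score that MACS2 writes as −log10 of a q value, computed by the authors for each library alone, and the summit position in bp. Reads were not used here, so depth is unknown and no counting interval was computed. Replicates were taken as labelled.

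Each list was reduced to its 29112 best summits on chromosomes 1 to 19, X and Y, and summits at most 200 bp apart were chained. Distances are to the nearer end of a protein-coding gene of GRCm38.p6 (21887 genes). Order and position were fitted with limma 3.58.1 in R 4.3.3 (robust empirical Bayes, 1 coefficient per group, all 19 libraries) over 13035 regions, with Benjamini-Hochberg adjustment and a threshold of 0.05; band shares were tested by exact permutation. Scripts were tested on simulated data. Alternatives covered list length, chaining, distance limits, distance to start sites, scales, a covariate, the replicate block and each library left out.

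Named genes are the 20 with most sites (ties by number of regions in the band, then alphabetical) and list genes with a site. Single regions named are the 3 best and weakest, most and least spread, those at the limits, and per comparison the called sites or the 2 with smallest p; for calls without mutant 6 on the diet, up to 3 per direction plus list genes, and the microRNA and lncRNA sites, were chosen after values were seen. Members and gene lists were chosen with earlier results of these data known. The planned words around summits need a genome sequence, so words were searched in start windows only. A few genes among these are not reported here.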

Additional observations from a re-analysis of the deposited data

Results flagged for a closer look

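The 52 groups of 4 to 6 values screened gave 6 in which 1 library lay far from the others of its group; chance gives about 1 in 20 groups. Mutant 6 on the RA diet had a median rank of 11957.5 over the distal sites and 65.0% of them among its stronger summits, both apart from the other 5 mutants on the diet. Mutant 1, whose genotype label conflicts with its title, had a median rank of 10981, apart from the other 3 mutants. Mutant 6 on the diet ranked the site by Mir17 at 7055, mutant 4 ranked the site by Mir9-1 at 6775, and control 2 ranked the Lhx2 site at 5090, each apart from its group.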

How the results depend on the processing

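The number of sites was 1142 with 14556 summits per library, 6764 at the length of the next shortest list (48323), which also leaves out mutant 4 on the RA diet, and 5689 with all deposited summits. It ran from 3309 to 3611 with each library left out. With distance taken to the nearest start site of a protein-coding gene it was 3250. Only 2124 (64.2%) of the 3310 sites were kept there, so membership depends on taking gene ends. Start sites were given for 17492 of the 21887 protein-coding genes. The share of summits in the band, whose differences did not pass, changed sign in several settings. With 14556 summits per library it was 0.0739 percentage points for mutants minus controls and 0.558 for mutants on the diet minus controls. With all deposited summits it was -2.36 for mutants on the diet minus mutants and -2.51 for mutants on the diet minus controls on the diet. Without change of sign it was -4.13 for mutants on the diet minus controls (exact permutation p = 0.0381, adjusted p = 0.190), against -0.483 at 29112 summits per library, -1.76 for mutants minus controls and -1.61 for controls on minus off the diet. With limits of 20 and 100 kb it was 0.0292 (mutants minus controls), -0.00315 (mutants on the diet minus mutants) and 0.0260 (mutants on the diet minus controls). The cause was not tested.

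With each library left out, the share difference ran from -1.25 to -0.556 for mutants minus controls, -0.942 to -0.352 for controls on minus off the diet, 0.0733 to 0.765 for mutants on minus off the diet, -0.0962 to 0.465 for mutants minus controls on the diet, and -0.856 to -0.103 for mutants on the diet minus controls. Sites called by order ran from 0 to 129 for mutants on the diet against mutants and from 0 to 109 against controls. Without mutant 3 there were 1 and 2, beside 1 and 4 of all regions. Sites called by position ran from 0 to 7 in mutants on the diet against mutants and from 0 to 6 in mutants against controls. Both were highest without mutant 2. The calls ran from 0 to 2 for the interaction and from 0 to 1 in the other comparisons. Without mutant 2, 17 of all 13035 regions were called by position in mutants on the diet against mutants, and 16 in mutants against controls. For the interaction it was 3. Chaining at 100 bp called 1 site by position in mutants on the diet against mutants, beside 2 of all regions so chained. With the number of deposited summits as covariate, 4 sites were called by order in the same comparison, beside 24 of all 13035 regions.

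Same-numbered libraries did not deviate together (25 pairs, correlations from -0.338 to 0.408 for order), so numbers were not taken as pairs. Numbers are those of the sample titles; the names of the 4 control files carry other numbers, and the check and the block below rest on the titles. With the replicate number as a block, 120 sites were called by order in mutants on the diet against mutants and 151 against controls. Beside them, 386 and 410 of all 13035 regions were called. Number 6 occurs in mutants on the diet only, so the block leaves that library without weight. Depth is unknown, and a region without a matched summit can hold a weaker one.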

Other observations

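Beyond miR-9, miR-181 and miR-17, other microRNA hairpins within 2 kb of a distal site included Mir193a, 746 bp from a site near Rab11fip4, Mir6346, 802 bp from a site near Gli2, and Mir6352, 184 bp from a site near Epha4. Of the 3310 sites, 284 (8.58%) had another site within 10 kb and 1124 (34.0%) within 50 kb. The X chromosome held 70 sites (2.11%), against 2.57% of all constitutive regions, and the Y chromosome 0.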
